A study of Mus musculus with 6 samples.

Results

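The alpha-defensins of Paneth cells were followed across 6 RNA-seq libraries of mouse intestinal epithelial cells. The members are every entry of the authors' deposited table whose symbol is Defa followed by a digit, which gave 17 genes among 1386 listed genes and loci. Wild-type mice on normal chow were gavaged daily from 8 weeks of age with 400000000 bacteria of the mucin-degrading species Akkermansia muciniphila (Akk) for 7 weeks, or with PBS, and each group has 3 libraries. The title of the series names the jejunum, AMPK and lipid absorption. The strain, the way the epithelium was detached and whether each library came from its own mouse are not given in the labels, so the spread between libraries may be partly technical.

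Paneth cells sit at the base of the small intestinal crypts and release granules of antimicrobial proteins into the lumen. Mouse alpha-defensins, also called cryptdins, are made as inactive precursors that the protease MMP7 cuts to short cysteine-rich peptides. Disulfide bonds hold these peptides in shape, and the peptides damage bacterial membranes and shape the composition of the small intestinal microbiota.

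The table holds only entries the authors had selected as differing between the groups in these same libraries, with a largest deposited p-value of 0.0498. It lists 346 entries as higher and 1040 as lower in Akk, and all 17 alpha-defensins are among the lower ones, as are 75% of all entries. The direction of each gene was therefore fixed by how the table was made, and no test on these libraries is independent of it. FPKM are counts scaled for gene length and depth, and dividing counts by them gave sequencing depths from 23463923 to 29253849 fragments. PBS replicate 2 was unlike the others: the listed entries took 23.7% of its depth against 12.0% to 16.9% in the other 5. The sums and the fitted changes of the alpha-defensins are given with and without it.

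All 17 genes lie on chromosome 8 between positions 21025545 and 21735471 of GRCm38 (the assembly that mm10 names), a span of 709.9 kb. In the GENCODE M21 annotation 16 are on the plus strand and Defa29 is on the minus strand. That annotation holds 22 protein-coding genes with such a symbol, and Defa25, Defa26, Defa27, Defa28 and Defa35 are not listed in the table. Another 4 listed genes in the same span are alpha-defensin genes under other symbols. RefSeq names Gm14851, Gm7849, Gm7861 and AY761184 as Defa38, Defa42, Defa43 and Defa39. AY761184 has 11 cysteine codons and a coding sequence 96.8% identical to Gm14851. They are described separately from the 17.

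Coding sequences from GENCODE M21 sorted the 17 into 5 sets, joined where at least 97% of aligned bases were identical to another gene of the set. The Defa24 group holds Defa3, Defa17, Defa23, Defa24, Defa30 and Defa31. The Defa5 group holds Defa5, Defa34, Defa36 and Defa37, and the Defa2 group holds Defa2, Defa20, Defa32 and Defa33. Defa21 and Defa22 form a pair, and Defa29 stands alone among the 17. The coding sequence of Defa29 is 97.4% identical to that of Gm14851 and 96.6% to those of AY761184, Gm7849 and Gm7861. Identity was 95.7% to 100% within a set, 81.0% to 91.8% between the 4 sets other than Defa29, and 71.1% to 75.9% between Defa29 and any other member.

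**Figure D1:**
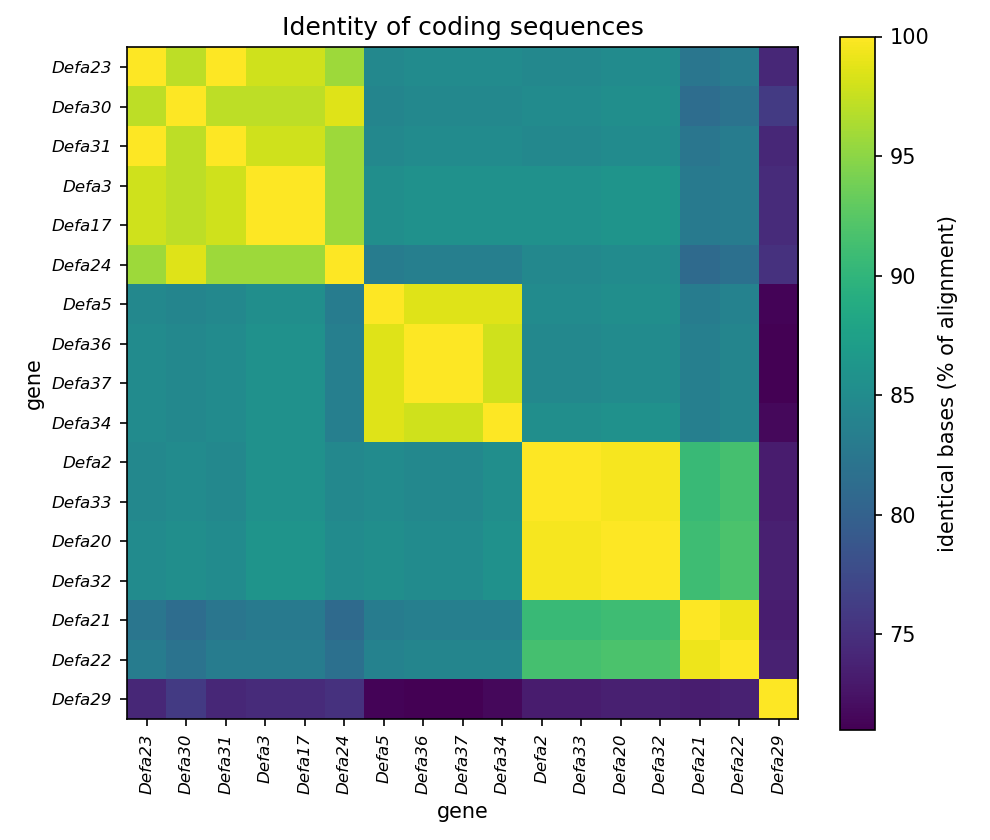
Percentage of identical bases in pairwise alignments of the coding sequences of the 17 genes (both axes), coloured from low (dark) to 100% (yellow). The blocks along the diagonal are the sequence groups, with 95.7% to 100% identity inside them. Defa29 stays at or below 75.9% with every other gene shown.

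The final coding exon carries the mature peptide, and the 17 genes hold 9 distinct versions of it, which are shown here. How far reads can be told apart depends on the whole transcript and is measured further below. Each runs 5′ to 3′ on the coding strand without the stop codon, and capitals mark the in-frame cysteine codons. In the Defa24 group the stretches are Defa24 (chr8:21735273-21735374), Defa30 (chr8:21135399-21135500), Defa23 (chr8:21055817-21055918, identical in Defa31) and Defa17 (chr8:21656537-21656638, identical in Defa3).
Defa24: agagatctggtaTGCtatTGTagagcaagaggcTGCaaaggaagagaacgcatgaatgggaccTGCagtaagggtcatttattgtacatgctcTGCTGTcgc
Defa30: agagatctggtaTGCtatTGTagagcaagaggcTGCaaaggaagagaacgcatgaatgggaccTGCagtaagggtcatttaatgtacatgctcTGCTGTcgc
Defa23: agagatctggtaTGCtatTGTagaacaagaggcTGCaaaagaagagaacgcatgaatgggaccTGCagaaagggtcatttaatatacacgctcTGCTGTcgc
Defa17: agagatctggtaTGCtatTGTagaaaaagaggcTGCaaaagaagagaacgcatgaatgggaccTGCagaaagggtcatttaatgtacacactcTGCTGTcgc
Defa24 and Defa30 differ at 1 of these 102 bases, whereas Defa23 and Defa17 differ from Defa24 at 6 and 7 bases. The Defa5 stretch (chr8:21298177-21298278) is shared without a difference by Defa34, Defa36 and Defa37, and differs from Defa24 at 26 bases.
Defa5: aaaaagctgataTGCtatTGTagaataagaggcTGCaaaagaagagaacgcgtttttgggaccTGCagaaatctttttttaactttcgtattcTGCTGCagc
The Defa2 stretch (chr8:21379292-21379399) is shared by Defa20, Defa32 and Defa33. Defa21 (chr8:21026319-21026420) and Defa22 (chr8:21163051-21163152) differ from each other at 1 base.
Defa2: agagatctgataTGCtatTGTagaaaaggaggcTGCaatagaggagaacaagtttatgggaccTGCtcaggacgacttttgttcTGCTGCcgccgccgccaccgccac
Defa21: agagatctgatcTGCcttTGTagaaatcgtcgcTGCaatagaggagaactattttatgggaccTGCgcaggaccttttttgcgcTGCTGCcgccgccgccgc
Defa22: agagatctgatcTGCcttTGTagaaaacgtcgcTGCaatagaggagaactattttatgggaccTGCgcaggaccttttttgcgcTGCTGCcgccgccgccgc
These 3 have 6 codons between the fourth and the fifth cysteine codon, where the stretches of the Defa24 and Defa5 groups have 9, and all of them hold 6 cysteine codons. Defa29 (chr8:21326002-21326169, minus strand) has 11 cysteine codons in 168 bases, most of them spaced by a pair of other codons, as in the cryptdin-related sequences.
Defa29: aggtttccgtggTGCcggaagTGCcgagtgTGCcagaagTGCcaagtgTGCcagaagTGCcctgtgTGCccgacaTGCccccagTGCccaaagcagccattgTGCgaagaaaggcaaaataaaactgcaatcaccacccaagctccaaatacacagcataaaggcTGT

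How far a count belongs to a single gene was measured as the share of its 100-base transcript windows that occur in the transcripts of no other annotated gene. Defa24 had 100%, Defa30 99.7% and Defa29 89.0% of windows to themselves, and Defa21 and Defa22 had 59.6% and 59.7%. The other 12 had 25% or less, and Defa2, Defa31, Defa33 and Defa37 had 0%. Read length and the handling of reads that match several genes were not given in the sources used here. Values of those 12 genes are thus uncertain singly, and the sums over groups are the firmer quantity.

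The summed counts of the 17 genes were 2825, 127082 and 3785 in the PBS libraries, in the order of their replicate numbers 1 to 3 as throughout, and 2264, 2501 and 2487 in the Akk libraries. Scaled to 1000000 fragments of the recovered depth (CPM), this was 109, 5416 and 138 in PBS and 77.4, 91.1 and 96.6 in Akk. PBS replicate 2 held 43.8-fold more than the mean of the other 2 PBS libraries, and alpha-defensins made up 0.542% of its depth against 0.0109% and 0.0138% in PBS replicates 1 and 3. The mean was 1888 ± 3056 CPM in PBS and 88.4 ± 9.88 CPM in Akk (SD, n = 3 each), a log2 ratio of Akk over PBS of −4.42. Without PBS replicate 2 the PBS mean was 124 CPM and the log2 ratio −0.48, an Akk level of 0.715 times PBS. All 3 Akk libraries lay below all 3 PBS libraries in the sum, as they did in FPKM for 65% of all listed entries taken singly. In bulk RNA, fewer Paneth cells and less defensin RNA per cell cannot be told apart.

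**Figure D2:**
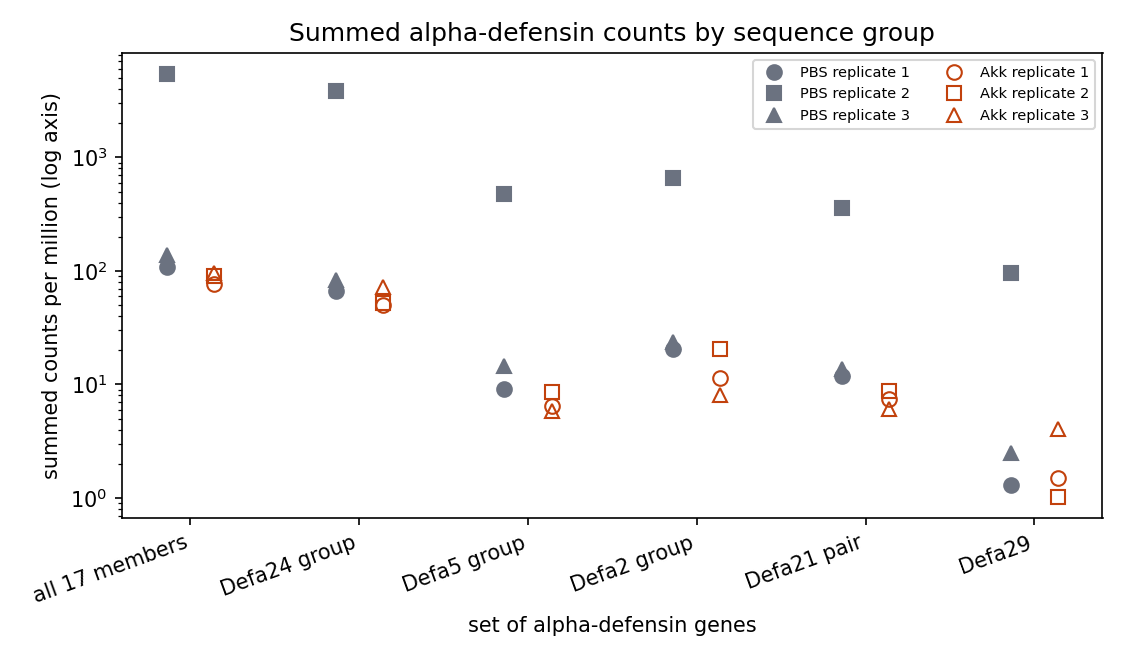
Summed alpha-defensin counts in CPM (log axis) in each library, for all 17 genes and for each sequence group. Filled grey symbols are PBS and open orange symbols Akk, with 1 symbol shape per replicate number. PBS replicate 2 stands far above the other 5 libraries in every set, and in the sum of all 17 the Akk libraries (77.4 to 96.6 CPM) lie below PBS replicates 1 and 3 (109 and 138 CPM).

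The difference without PBS replicate 2 was not even across the groups. In the Defa24 group, the most abundant, the sum was 65.9, 3827 and 83.9 CPM in PBS and 50.6, 52.2 and 72.7 CPM in Akk. Akk replicate 3 lay above PBS replicate 1, so the groups overlapped, and the log2 ratio without PBS replicate 2 was −0.36. The Defa5 group had 9.05, 475 and 14.4 CPM in PBS and 6.49, 8.63 and 5.86 CPM in Akk. Its libraries did not overlap, and the log2 ratio without PBS replicate 2 was −0.75. For comparison, all Akk libraries lay below all PBS libraries in FPKM for 65% of all listed entries taken singly.

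The Defa2 group measured 20.7, 659 and 23.8 CPM in PBS and 11.3, 20.5 and 8.00 CPM in Akk. Akk replicate 2 came close to PBS replicate 1, although all Akk values were below all PBS values, and the log2 ratio without PBS replicate 2 was −0.75. For the Defa21 pair the sum was 11.9, 359 and 13.8 CPM in PBS and 7.45, 8.78 and 6.02 CPM in Akk. It was again without overlap, with a log2 ratio of −0.79 without PBS replicate 2. Such a lack of overlap, with Akk below PBS in FPKM, held for 65% of all listed entries taken singly. Defa29 went the other way once PBS replicate 2 was left out. It had 1.31, 96.7 and 2.49 CPM in PBS and 1.5, 1.02 and 4.04 CPM in Akk, and the log2 ratio was 0.20 with overlapping libraries.

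The 4 alpha-defensins under other symbols had together 25.9, 1533 and 39.8 CPM in PBS and 24.3, 18.7 and 19.8 CPM in Akk. Their libraries did not overlap, and the log2 ratio was −0.65 without PBS replicate 2. Of all listed entries taken singly, 65% had all Akk libraries below all PBS libraries in FPKM. Singly, the log2 ratios without PBS replicate 2 were −0.83 for Gm14851, −0.67 for Gm7849, −0.70 for Gm7861 and −0.39 for AY761184. Defa29, their close relative by sequence, thus differed from them in direction. With these 4 added, the sum over 21 genes gave log2 ratios of −4.47 with and −0.52 without PBS replicate 2.

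Among single genes, Defa24 had the highest FPKM of the 17 in all 6 libraries. It measured 44.7, 2108 and 46.3 FPKM in PBS and 40.6, 37.3 and 42.3 FPKM in Akk, so that the Akk libraries lay below PBS replicate 1 by a small margin. No 100-base window of its transcript occurs in another gene, so it is the member least exposed to shared reads. Its fitted log2 fold change (± SE) was −4.19 ± 1.47 over all 6 libraries, and −0.18 ± 0.19 when PBS replicate 2 was left out. Defa30, its nearest relative by sequence, measured 11.6, 1077 and 18.8 FPKM in PBS and 12.5, 14.7 and 23.8 FPKM in Akk. Akk replicate 3 exceeded PBS replicates 1 and 3, and the log2 fold change went from −4.44 ± 1.64 to 0.16 ± 0.36 when PBS replicate 2 was left out.

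Defa17 was second by FPKM in the PBS libraries, with 19.4, 1104 and 27.2 FPKM, and had 12.2, 14.1 and 20.7 FPKM in Akk. Defa3, which has the same coding sequence, measured 15.1, 766 and 18.9 FPKM in PBS and 8.66, 9.38 and 14.0 FPKM in Akk. The Akk libraries overlapped PBS for Defa17 and not for Defa3, and the summed counts of both overlapped. Defa23 measured 11.04, 793 and 17.1 FPKM in PBS and 6.37, 7.06 and 9.34 FPKM in Akk. Defa31, identical to Defa23 in its coding sequence, measured 10.7, 734 and 15.9 FPKM in PBS and 5.73, 6.50 and 14.9 FPKM in Akk. Defa23 showed no overlap between groups, yet Defa31 and the sum of this pair did, with Akk replicate 3 high for Defa31.

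In the Defa5 group, Defa36 had 4.92, 269 and 8.52 FPKM in PBS and 4.03, 3.56 and 2.35 FPKM in Akk. Its coding twin Defa37 had 5.57, 296 and 8.49 FPKM in PBS and 4.38, 4.39 and 2.56 FPKM in Akk. Neither gene overlapped between groups, with or without PBS replicate 2. Of all listed entries, 65% had all Akk libraries below all PBS libraries in FPKM, and 65.2% had them below PBS replicates 1 and 3. Defa5 and Defa34 had lower levels per length, 127 and 135 FPKM in PBS replicate 2, between 2.48 and 4.21 FPKM in PBS replicates 1 and 3 and between 0.945 and 4.08 FPKM in Akk, and both overlapped.

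The Defa2 group held the most uneven values. Defa20 had 12.3, 367 and 11.02 FPKM in PBS and 6.44, 13.4 and 6.41 FPKM in Akk, with Akk replicate 2 above PBS replicates 1 and 3. Defa32 had 6.93, 219 and 8.80 FPKM in PBS and 4.06, 6.21 and 0.449 FPKM in Akk. The lowest value of Defa32 rests on 8 counts in Akk replicate 3 (exact Poisson 95% interval 3.45 to 15.8, counting error only). Defa2 had 9.996, 340 and 13.2 FPKM in PBS and 7.93, 9.82 and 3.99 FPKM in Akk. Defa33 had 4.54, 153 and 5.93 FPKM in PBS and 0.107, 4.00 and 2.12 FPKM in Akk, and its lowest value rests on 2 counts in Akk replicate 1 (interval 0.242 to 7.22).

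**Figure D3:**
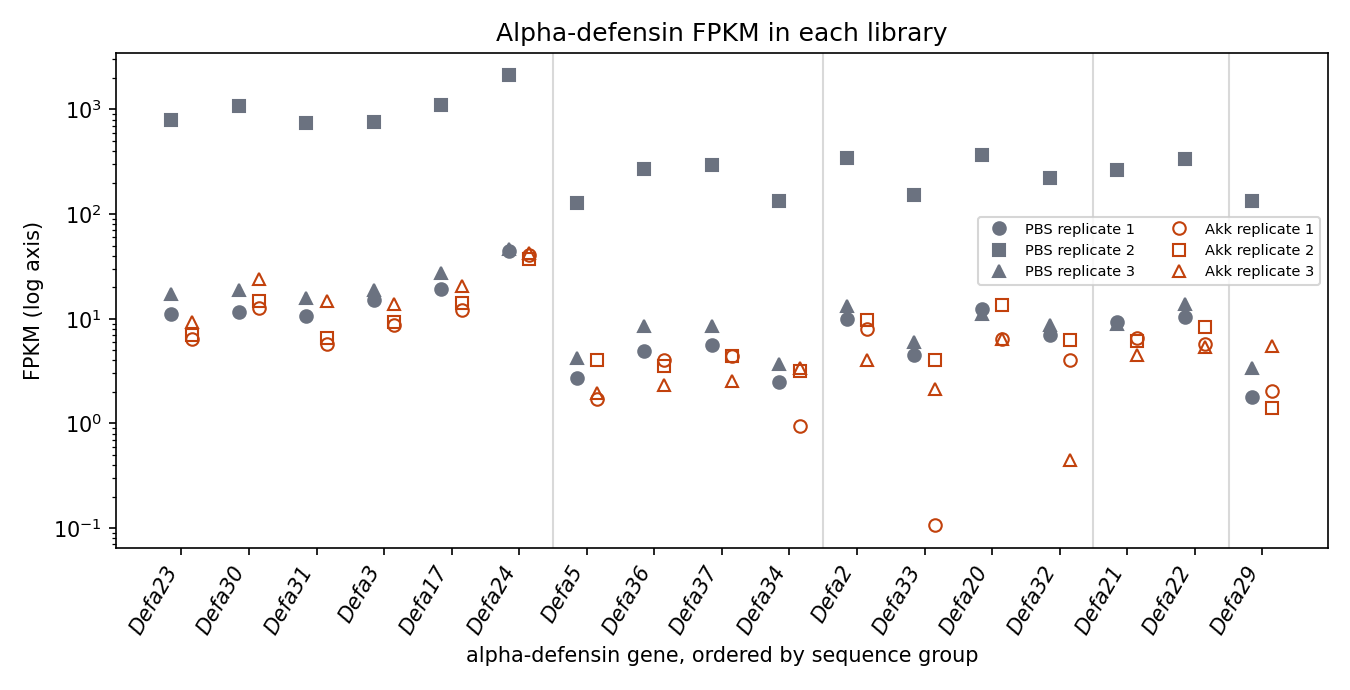
FPKM (log axis) of each of the 17 genes in each library, ordered by sequence group with grey lines between groups. Filled grey symbols are PBS and open orange symbols Akk, with 1 shape per replicate number. PBS replicate 2 is the highest library for all 17 genes, Defa24 is the highest gene in each library, and the lowest points are Defa33 in Akk replicate 1 (2 counts) and Defa32 in Akk replicate 3 (8 counts).

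Counts were divided unevenly between genes of identical coding sequence in single libraries. Defa2 took 64.9% to 70.8% of the counts it shares with Defa33 in 5 libraries, and 98.6% in Akk replicate 1. Defa20 took 55.6% to 68.4% of those it shares with Defa32 in 5 libraries, and 92.7% in Akk replicate 3. Defa23 took 53.1% to 54.7% of the Defa23 and Defa31 counts in 5 libraries and 40.6% in Akk replicate 3. The splits of Defa3 with Defa17 (40.6% to 44.5%) and of Defa36 with Defa37 (45.7% to 51.1%) were steady over all 6. Summed over each identical pair, Akk and PBS did not overlap for Defa2 with Defa33 and for Defa36 with Defa37, and overlapped for the other 3 pairs. Among all listed entries taken singly, 65% had all Akk libraries below all PBS libraries in FPKM.

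Akk replicate 3 had the least typical mixture of alpha-defensins. The Defa24 group took 60.6%, 70.7% and 60.6% of the alpha-defensin counts in PBS and 65.4%, 57.3% and 75.2% in Akk. For the Defa2 group the shares were 19.0%, 12.2% and 17.2% in PBS and 14.7%, 22.5% and 8.28% in Akk. Counts of the Defa24 group were 2.55 to 5.81 times those of the Defa2 group in the other 5 libraries and 9.08 times in Akk replicate 3. Defa29 took 1.12% to 1.94% in the other 5 and 4.18% in Akk replicate 3. Group means of the Defa24 and Defa2 group shares lay closer together than the spread between libraries. For the Defa24 group they were 64.0% ± 5.81 in PBS and 66.0% ± 8.98 in Akk, and for the Defa2 group 16.1% ± 3.55 and 15.1% ± 7.11 (SD, n = 3 each). For Defa29 they were 1.60% ± 0.339 in PBS and 2.41% ± 1.58 in Akk. For the Defa5 group they were 9.16% ± 1.10 and 7.98% ± 1.74. In both of these the means lay further apart than the PBS SD.

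**Figure D4:**
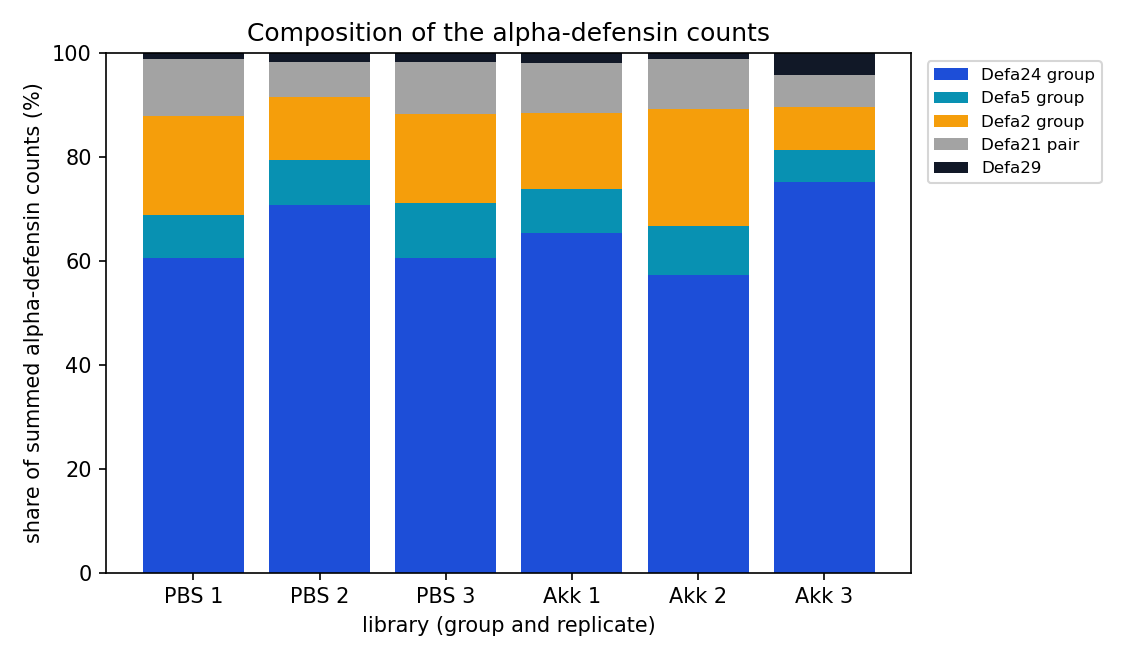
Share of the summed alpha-defensin counts (%) taken by each sequence group in each library. The Defa24 group takes 57.3% to 75.2%, with its largest share in Akk replicate 3, where the Defa2 group has its smallest, 8.28%.

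Across all listed entries, counts were fitted with edgeR's quasi-likelihood test, with Benjamini-Hochberg adjustment over all 1386 entries. The filter on low counts removed none of the 17. With all 6 libraries, 0 of the 17 passed an adjusted p of 0.05, as did 0% of all entries, and the adjusted p was 0.0861 for each of the 17. At an unadjusted p under 0.05 all 17 were lower, as were 54.3% of all entries. DESeq2 gave no p-value, adjusted or unadjusted, for any of the 17, and limma-voom called 0 of them. Their fitted log2 fold changes ran from −5.17 for Defa23 to −3.89 for Defa20 with a median of −4.44. The median was −1.85 over all entries and −2.19 over entries listed as lower. The authors' deposited table gives log2 fold changes of −1.68 to −1.20 and p-values of 0.00124 to 0.0202 for the same genes. How these were computed was not given in the sources used here, so their sizes cannot be set against the fitted ones.

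Without PBS replicate 2 the difference was no larger than over the table as a whole. Of the 17, 0 passed the adjusted threshold as lower, against 17.7% of all entries, and 6 had an unadjusted p under 0.05, against 48.6%. Their median log2 fold change was −0.66, the same to 2 decimals as over all entries, beside −0.78 over entries listed as lower. Below 0 were 15 of 17, against 1036 of the 1386 entries (74.7%), where 1040 are listed as lower. The smallest adjusted p was 0.0595, for Defa22, with a log2 fold change of −0.89 ± 0.29, and Defa22 had 10.3 and 13.9 FPKM in PBS replicates 1 and 3 against 5.77, 8.36 and 5.43 FPKM in Akk. Defa21 had 9.33 and 8.94 FPKM in these PBS libraries against 6.56, 6.20 and 4.50 FPKM in Akk, and a log2 fold change of −0.66 ± 0.26. Without PBS replicate 1 instead, all 17 passed as lower, against 52.2% of entries, with an adjusted p of 0.0391, and without PBS replicate 3 all 17 passed, against 50.9%, at 0.0395 to 0.0402.

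**Figure D5:**
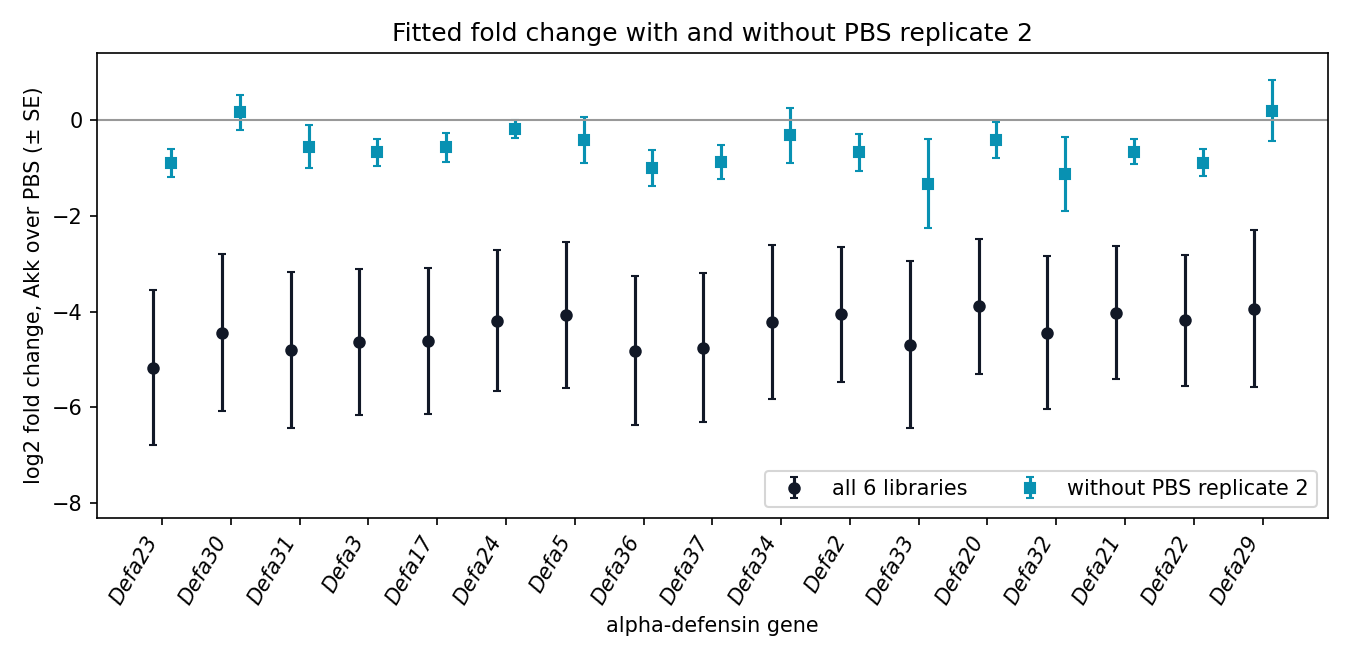
Fitted log2 fold change of Akk over PBS (edgeR, ± SE) for each of the 17 genes, with all 6 libraries (black circles) and without PBS replicate 2 (blue squares). With all libraries the values lie between −5.17 and −3.89, and without PBS replicate 2 between −1.33 (Defa33) and 0.20 (Defa29), with Defa30 and Defa29 above 0.

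In FPKM, 10 of the 17 had all 3 Akk libraries below all 3 PBS libraries, against 65% of all entries, and these were Defa2, Defa3, Defa21, Defa22, Defa23, Defa24, Defa32, Defa33, Defa36 and Defa37. The 10 also lay below PBS replicates 1 and 3 alone, which 65.2% of all entries did. All 17 are listed as lower, as are 1040 of the 1386 entries, and the shares in this paragraph are over all entries. All Akk libraries lay below all PBS libraries for 901 entries. PBS replicate 2 was the highest library for all 17, and for 1026 of all entries (74%). It was at least 10-fold above the mean of the other 2 PBS libraries in CPM for all 17, and for 17% of all entries. That ratio ran from 27.4 for Defa22 to 70.6 for Defa30, with a median of 42.0, beside a median of 5.68 over the other 1023 entries listed as lower. By group it was 51.1 for the Defa24 group, 51.0 for Defa29, 40.5 for the Defa5 group, 29.6 for the Defa2 group and 28.0 for the Defa21 pair.

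Promoter sequences were at hand in RefSeq (GRCm38.p6) for 10 of the 17 genes, namely Defa2, Defa20, Defa21, Defa22, Defa23, Defa30, Defa31, Defa32, Defa36 and Defa37. The 250 bases before the start are shown for 1 gene of each of 3 groups with a sequence at hand. Capitals mark TATAAA, the letters of a TATA box, and TCAAAG, the reverse complement of CTTTGA, a core recognised by TCF factors of the Wnt pathway. The stretches are Defa21 (chr8:21025295-21025544), Defa23 (chr8:21054790-21055039) and Defa36 (chr8:21427178-21427427), all on the plus strand.
Defa21: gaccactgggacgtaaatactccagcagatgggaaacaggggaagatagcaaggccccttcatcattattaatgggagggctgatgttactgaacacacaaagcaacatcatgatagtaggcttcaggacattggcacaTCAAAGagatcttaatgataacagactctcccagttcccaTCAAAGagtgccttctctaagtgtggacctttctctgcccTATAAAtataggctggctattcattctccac
Defa23: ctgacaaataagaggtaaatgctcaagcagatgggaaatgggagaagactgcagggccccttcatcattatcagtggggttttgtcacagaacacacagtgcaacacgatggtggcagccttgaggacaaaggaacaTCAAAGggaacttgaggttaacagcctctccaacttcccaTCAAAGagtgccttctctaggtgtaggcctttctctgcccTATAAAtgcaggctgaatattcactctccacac
Defa36: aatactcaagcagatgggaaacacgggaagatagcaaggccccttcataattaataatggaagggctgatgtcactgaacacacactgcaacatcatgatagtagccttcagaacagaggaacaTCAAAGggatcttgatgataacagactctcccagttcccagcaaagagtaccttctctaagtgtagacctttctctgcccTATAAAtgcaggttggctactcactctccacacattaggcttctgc
In windows from 250 bases before to 50 after the start, TATAAA on the gene's strand was found in 10 of 10 members and in 8.32% of 32851 windows of all genes. CTTTGA on either strand was in 10 of 10 members and 16% of all windows. CTTTGT, which shares its first 5 letters, was in 8 of 10 and 18.7%, and Defa36 and Defa37 lacked it. Gm14851, Gm7849 and Gm7861, the alpha-defensins under other symbols with a sequence at hand, held TATAAA but neither CTTTGA nor CTTTGT, and their PBS replicate 2 ratios were 50.1, 42.3 and 39.0. The windows of Defa2 and Defa20, of Defa21 and Defa22, of Defa23 and Defa31 and of Defa36 and Defa37 were identical within each pair. That of Defa32 matched that of Defa2 at 98.7% of bases, so the 10 member windows are not independent sequences. A match is only a run of letters, and binding was not measured. The windows of Defa21 and Defa22 matched those of Defa2, Defa20 and Defa32 at 96.4% to 97.7% of bases, and these genes had PBS replicate 2 ratios of 27.4 to 31.4. Defa23 and Defa31 had ratios of 56.2 and 55.2, and Defa36 and Defa37 had 40.0 and 42.0. Genes alike in these windows are also alike in coding sequence and may share reads, and a link of window to ratio was not tested. The window of Defa30, which had the highest ratio, matched that of Defa23 at 74.3%.

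Other Paneth cell products followed the alpha-defensins in part. Of 22 genes in a list of such products 8 are in the table, with 6 listed as lower and 2 as higher. In the edgeR fit 0 of the 8 passed the adjusted threshold with all libraries, and the 6 lower ones had an unadjusted p under 0.05, as did 54.3% of all entries in that direction. Without PBS replicate 2 again 0 passed, and Reg3b alone had an unadjusted p under 0.05. DESeq2, which left 6 of the 8 without an adjusted p, and limma-voom called 0. Without PBS replicate 1 or 3 edgeR called 6, where 52.2% and 50.9% of all entries were called lower. Lyz1, the lysozyme of Paneth cells, had 27.4, 978 and 28.8 FPKM in PBS and 17.6, 18.5 and 25.5 FPKM in Akk. Ang4, an antimicrobial ribonuclease, had 48.3, 1305 and 40.7 FPKM in PBS and 32.1, 35.7 and 24.5 FPKM in Akk. Neither overlapped between groups, where 65% of all entries had all Akk libraries below all PBS libraries in FPKM. The log2 fold changes of Lyz1 and Ang4 were −4.07 ± 1.38 and −3.92 ± 1.33 with all libraries. Without PBS replicate 2 they were −0.45 ± 0.23 and −0.53 ± 0.23.

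Mmp7, the protease that activates mouse alpha-defensins, had 6.59, 91.0 and 6.42 FPKM in PBS and 4.72, 4.24 and 5.32 FPKM in Akk. Its libraries did not overlap, where 65% of all entries had all Akk libraries below all PBS libraries in FPKM. Its log2 fold change was −2.86 ± 1.11, and −0.45 ± 0.21 without PBS replicate 2. Its PBS replicate 2 ratio, 14.0, was the lowest of the 6 products listed as lower. Summed alpha-defensin counts were 10.7 to 14.1 times the Mmp7 count in 5 libraries and 38.8 times in PBS replicate 2. Against Lyz1 the ratio was 2.09 to 2.72 in those 5 and 3.06 in PBS replicate 2, and against Ang4 it was 2.21 to 3.87 and 4.08. Against Itln1 it was 1.60 to 2.56 in those 5 and 4.78 in PBS replicate 2. Mptx2 went the other way, with 15.8 to 23.3 in those 5 and 14.8 in PBS replicate 2.

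Mptx2, a mucosal pentraxin, had 4.09, 320 and 5.88 FPKM in PBS and 3.22, 4.45 and 5.34 FPKM in Akk, and its libraries overlapped. Its log2 fold change went from −4.66 ± 1.63 to −0.20 ± 0.31 without PBS replicate 2. Itln1, a lectin that binds microbial sugars, had 25.9, 692 and 33.3 FPKM in PBS and 29.5, 29.9 and 35.2 FPKM in Akk. It overlapped too, with a log2 fold change of −2.99 ± 1.20 that became 0.09 ± 0.21 without PBS replicate 2. AY761184, already described among the alpha-defensins under other symbols, is the sixth.

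Reg3b and Reg3g, antibacterial lectins that enterocytes make as well, were the 2 listed as higher. Reg3b had 596, 1391 and 1098 FPKM in PBS and 1387, 2324 and 1557 FPKM in Akk, and Akk replicate 1 was just below PBS replicate 2. Reg3g had 932, 998 and 1270 FPKM in PBS and 1437, 1388 and 1396 FPKM in Akk, without overlap. The log2 fold change of Reg3b was 0.77 ± 0.44 and that of Reg3g 0.40 ± 0.34, and without PBS replicate 2 they were 1.06 ± 0.36 and 0.35 ± 0.22. PBS replicate 2 was 1.66-fold (Reg3b) and 0.907-fold (Reg3g) the mean of the other 2 PBS libraries in CPM, unlike the alpha-defensins.

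Of 18 regulators of Paneth cell development, only Sox9 and Ephb2 are in the table, both as lower. Sox9, a transcription factor that Paneth cells require, had 1.51, 6.84 and 0.412 FPKM in PBS and 0.334, 0.622 and 0.641 FPKM in Akk, and overlapped. Its log2 fold change was −2.45 ± 1.06, and −0.85 ± 0.56 without PBS replicate 2. Ephb2, a receptor that positions cells along the crypt, had 1.37, 10.1 and 1.53 FPKM in PBS and 0.754, 0.507 and 0.469 FPKM in Akk. With all libraries edgeR and limma-voom called 0 of these 2, both had an unadjusted p under 0.05 in edgeR, and DESeq2 called both, against 54.3% and 51.4% of all entries as lower. The log2 fold change of Ephb2 was −2.98 ± 0.85 with all libraries. Without PBS replicate 2 it fell, with −1.62 ± 0.19 (edgeR, adjusted p = 0.0157), and 17.7% of all entries were called lower there.

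Markers of other crypt cells were high in PBS replicate 2 along with the alpha-defensins, and their part in the result was not tested. The 5 listed of 9 Paneth cell markers summed to 156, 4738 and 165 CPM in PBS and 124 to 143 CPM in Akk. The 5 listed of 11 stem cell markers, with Olfm4 the most abundant, summed to 57.5, 2765 and 64.7 CPM in PBS and 29.6 to 44.7 CPM in Akk. For 18 listed of 19 markers of dividing cells the sums were 271, 2848 and 252 CPM in PBS and 114 to 182 CPM in Akk. Apoa4 and Apob, the 2 listed of 9 enterocyte markers, went the opposite way, with 7958, 3017 and 12534 CPM in PBS and 14406 to 18705 CPM in Akk. Zg16 and Muc13, the 2 listed of 8 goblet cell markers, summed to 3620, 3084 and 4778 CPM in PBS and 4708 to 8038 CPM in Akk. Gip, Sst and Gcg, the 3 listed of 7 enteroendocrine markers, summed to 48.0 to 62.8 CPM in PBS, lowest in PBS replicate 2, and to 79.7 to 82.4 CPM in Akk. Gip made up most of that sum, and Gcg ran opposite to it, with 8.36, 16.02 and 7.94 CPM in PBS and 3.30 to 5.06 CPM in Akk.

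Of 7 pancreatic acinar markers only Clps is listed, with 1.12, 58.0 and 1.39 CPM in PBS and 2.02 to 2.15 CPM in Akk. None of the markers of tuft cells, T cells, B cells, myeloid cells or stromal cells is listed, so their levels are unknown, and no listed marker was at 0 in any library.

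Likeness to the summed alpha-defensins was measured over the 6 libraries as the root mean square difference of log2(CPM + 0.5) profiles centred on their means, among 1369 other entries. The nearest were Gm7849 (0.18), Lyz1 (0.19), Mptx2 (0.20) and Gm7861 (0.20). An unnamed locus of the authors (0.23), Gm14851 (0.31), Olfm4 (0.33) and Myb (0.33), a transcription factor of crypt progenitors, came next. PBS replicate 2 dominates this measure. Over the other 5 libraries the distance of Lyz1 was 0.15 and its rank 85, that of Mptx2 was 0.18 and its rank 173, and the other 6 ranked between 225 and 609.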

How the data were processed

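Illumina mRNA libraries were made from Trizol-extracted RNA, per the labels' protocols, and mm10 is the build in the submitters' processing notes. Which aligner, counter, annotation, strand setting and test were used was not given in the sources used here. Whole-number read counts and FPKM were deposited for each library, per the file headers, with a p-value (adjusted or not is not said) and a log2 fold change for each entry in the same deposited table. Left out were 2 lines of annotation text.

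Depth was recovered from count over FPKM, over 560 entries with a count of at least 200 (relative) and 548 of them with a GENCODE M21 exon length (absolute), and served as library size. Tests used edgeR 4.0.16 (R 4.3.3, quasi-likelihood F test, filterByExpr, no further factors), checked on simulated counts. The simulated counts held no library set apart as PBS replicate 2 is, so the check does not bear on its effect. SE is the log2 fold change over the square root of F. CPM is the count scaled to a depth of 1000000. No test was made of the sums. Alternatives were RLE, TMM and upper-quartile factors, filters, a replicate block, DESeq2 1.42.0, limma 3.58.1 (voom, or log2 FPKM with a pseudocount of 0.1 or 1), an adjusted p of 0.01, and each library left out. Members, lists and tests were chosen with earlier results of these data known. Named genes are every member, every listed gene of both Paneth cell lists and the 8 nearest profiles; genes named from marker lists and the 4 alpha-defensins under other symbols were chosen after their values were seen.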

Additional observations from a re-analysis of the deposited data

How the results depend on the processing

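PBS replicate 2 carries most of the size of the difference. The log2 ratio of summed alpha-defensins was −4.42, between −4.97 and −0.48 with each library left out, and −0.48 without PBS replicate 2. Defa30 (range −5.01 to 0.16 with each library left out) and Defa29 (−4.73 to 0.20) turned to higher in Akk without it. With each library left out in turn, 0 to 17 alpha-defensins, 0 to 6 other Paneth cell products, 0 to 2 regulators and 0 to 734 of all entries passed the threshold; 17 alpha-defensins passed without PBS replicate 1 or 3, and 0 did in the other 4 fits. RLE and TMM factors, which assume that most entries do not differ, moved the median of all entries from −1.85 to −0.15 and −0.21. The log2 ratio of summed alpha-defensins was then −1.83 and −1.97, and the direction of all 17 was kept. With the replicate number as a block, 6 entries passed and 0 alpha-defensins, with a median log2 fold change of the 17 of −2.08. Deviations of same-numbered libraries from their group means correlated at 0.24, −0.08 and −0.30. Deviations within a group of 3 are not independent of each other, so these values cannot show whether the numbers pair the libraries. DESeq2 called 786 entries and both regulators (2) and left the p and the adjusted p of the 17 alpha-defensins undefined. In limma-voom 2 entries were called and in limma on log2(FPKM + 0.1) 1 was. For the other products DESeq2 gave no adjusted p for 6 of 8. The cause of these differences was not tested. Filters removed no entry. The 4 alpha-defensins under other symbols were added to the sum after the data were seen. The single copies at 8 counts or fewer, Defa33 in Akk replicate 1 and Defa32 in Akk replicate 3, are uncertain. In those libraries Defa2 took 98.6% of the counts it shares with Defa33, and Defa20 took 92.7% of those it shares with Defa32. The cause was not tested.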
